A study of Homo sapiens with 4 samples.

Results

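The genes that copy DNA and those that carry cells from G1 into S phase were followed in 2 clones of A2780s cells labelled as GALNT3 knockdowns, since control of the cell cycle was among the questions of the study. The group comprised 53 listed genes, taken with every array probe whose transcript accession belongs to one of them. All 53 had a probe, 71 probes in all, out of 17240 genes and 41000 probes on the array. A2780s is an established line of human ovarian adenocarcinoma, grown as adherent cells. The clones sh-G1 and sh-G2 stably carry the same GALNT3 shRNA in a puromycin-resistant pSilencer plasmid, and ctrl is a mock-transfected clone with the plasmid alone. All 3 were selected with puromycin, and each is 1 clone. Total RNA was compared on 4 Agilent arrays of 2 colours, 2 for each knockdown clone, with ctrl in the other channel. On the first array of a clone the knockdown carried Cy5 and on the second it carried Cy3, so that dye orientation and array number cannot be told apart. Every value below is a log2 ratio of knockdown over ctrl, so that 0 stands for equal signal and 0.585 for a 1.5-fold higher signal in the knockdown.

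DNA replication starts at origins that are prepared in G1. The origin recognition complex (ORC) binds the origin, CDC6 and CDT1 load the ring of MCM2 to MCM7 onto DNA, and geminin (GMNN) holds CDT1 in check once S phase has begun. MCM10, CDC45 and the GINS complex turn the loaded ring into an active helicase. DNA polymerase alpha and its primase lay down primers, replication factor C (RFC) loads the sliding clamp PCNA, and the polymerases delta and epsilon extend the strands. Upstream, cyclin D with CDK4 or CDK6 and cyclin E with CDK2 inactivate RB1, which frees E2F factors to switch on many of these same genes. Many transcripts of this group are known to be most abundant around the G1/S boundary and in S phase.

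Promoters of 5 genes are shown: those of PCNA, the gene with the highest mean ratio, of MCM6, MCM7 and PRIM1, whose ratios were also above 0 on all 4 arrays, and of CCNE1, whose ratios were below 0 on all 4. The windows come from RefSeq on the build GRCh38.p14 and run from 250 bases before to 50 after a transcription start, on the strand of the gene. Capitals mark the E2F letters TTTCCCGC or TTTGGCGC read on either strand. PCNA and MCM7 have further annotated starts, and the window with the letters is shown. The windows lie at chr20:5126573-5126872 (minus strand) for PCNA, chr2:135876394-135876693 (minus strand) for MCM6, chr7:100101348-100101647 (minus strand) for MCM7, chr12:56752274-56752573 (minus strand) for PRIM1 and chr19:29811741-29812040 (plus strand) for CCNE1.
PCNA: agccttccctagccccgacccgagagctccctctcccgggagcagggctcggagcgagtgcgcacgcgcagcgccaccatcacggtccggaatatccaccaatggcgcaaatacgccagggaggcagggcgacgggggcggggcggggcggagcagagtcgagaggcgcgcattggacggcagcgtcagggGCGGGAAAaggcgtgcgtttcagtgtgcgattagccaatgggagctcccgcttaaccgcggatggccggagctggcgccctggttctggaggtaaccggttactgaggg
MCM6: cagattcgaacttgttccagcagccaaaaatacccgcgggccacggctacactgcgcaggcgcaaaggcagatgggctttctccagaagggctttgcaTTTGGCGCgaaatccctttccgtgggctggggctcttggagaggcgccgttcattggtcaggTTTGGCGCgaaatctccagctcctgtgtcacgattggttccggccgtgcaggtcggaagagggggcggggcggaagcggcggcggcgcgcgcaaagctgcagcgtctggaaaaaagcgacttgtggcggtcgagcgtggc
MCM7: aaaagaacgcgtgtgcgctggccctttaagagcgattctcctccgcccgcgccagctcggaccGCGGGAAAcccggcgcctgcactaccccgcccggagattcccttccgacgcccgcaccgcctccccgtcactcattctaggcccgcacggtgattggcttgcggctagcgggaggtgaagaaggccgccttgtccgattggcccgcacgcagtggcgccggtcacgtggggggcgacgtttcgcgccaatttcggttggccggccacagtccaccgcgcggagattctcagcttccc
PRIM1: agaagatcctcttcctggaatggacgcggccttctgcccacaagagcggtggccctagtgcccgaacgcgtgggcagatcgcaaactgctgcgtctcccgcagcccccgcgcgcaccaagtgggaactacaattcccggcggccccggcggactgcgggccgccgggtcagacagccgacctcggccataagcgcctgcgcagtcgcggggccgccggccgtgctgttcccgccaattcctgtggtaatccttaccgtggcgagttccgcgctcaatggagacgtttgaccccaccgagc
CCNE1: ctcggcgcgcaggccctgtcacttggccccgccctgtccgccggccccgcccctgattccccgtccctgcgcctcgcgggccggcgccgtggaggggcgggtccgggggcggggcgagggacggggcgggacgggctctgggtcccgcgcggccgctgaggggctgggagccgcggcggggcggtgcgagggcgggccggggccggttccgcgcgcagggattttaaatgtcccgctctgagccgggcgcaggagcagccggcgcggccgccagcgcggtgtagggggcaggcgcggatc
Counted from the start site, the letters begin at -59 in PCNA, at -152 and -90 in MCM6 and at -187 in MCM7. The windows of PRIM1 and CCNE1 hold neither spelling, nor do those of RRM2 and ORC2, which were above 0 on all 4 arrays as well.

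Windows were at hand for 44 of the 53 genes. Either E2F spelling stood in 22 of the 44 (50%), against 2.75% of the 27305 genes in the promoter table. TTTCCCGC was found in 12 (27.3% against 1.98%) and TTTGGCGC in 10 (22.7% against 0.795%), with no gene holding both. These spellings differ at the middle letters and cannot occupy the same place on 1 strand. The NF-Y letters CCAAT were found in 28 (63.6% against 39.7%) and the letters TTTGAA of the cell cycle homology region, a feature of later cell cycle genes, in 1 (2.27% against 18.2%). The E2F letters were spread over genes with ratios of either sign. They stood in 12 of 24 genes with ratios above 0 in both clones, in 3 of 5 with ratios below 0 in both and in 7 of 15 with opposite signs. MCM4, MCM5, GINS4, RPA2, RPA3, CCND1, CCND2, CCNE2 and CDK2 had no window in the table.

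The 4 arrays lay on 1 slide, with 88.1% to 97.0% of spots well above background in the knockdown channel and 95.9% to 97.6% in the ctrl channel. All 53 genes were well above background in both channels of every array, so none of them depended on a filter for dim signals. The probe for GALNT3 itself was dim and gave ratios of -0.09 and 0.08 in sh-G1 and 0.12 and -0.14 in sh-G2, with a mean of -0.01 (SE 0.04, n = 2 clones, limma adjusted p = 0.963). Its signal was well above background in the knockdown channel on 2 of 4 arrays. The knockdown is therefore taken from the labels, and each direction given here rests on them. Among the listed markers of the line, KRT18 (mean -2.32, limma adjusted p = 0.0365) and KRT8 (-1.03, limma adjusted p = 0.0316) were lower in the knockdown clones, and the other 6 lay between -0.33 and 0.04. Of the listed fibroblast genes with a named probe, LUM had a mean of -3.31, DCN of -3.17 and COL1A2 of -0.33, and none passed the threshold. LUM and DCN were far below 0 on every array, from -4.65 to -2.01, and lower in sh-G1 (-4.58 and -4.24) than in the other clone (-2.04 and -2.09). In the comparison of the clones described below, which covers the spread between arrays only, this difference had a limma adjusted p = 0.0181 for LUM and 0.0300 for DCN. The 7 leukocyte and endothelial markers lay between -0.07 and 0.04. The part of these shifts in the ratios of the replication genes was not tested.

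None of the 53 genes passed limma's test of the mean of both clones, in either direction, at an adjusted p under 0.05. Over all 16882 genes kept, 0.184% were called higher and 0.906% lower. The lowest adjusted p in the group was 0.189, for PCNA. Before adjustment, 8 genes had a p under 0.05 with a mean above 0, where 6.24% of all genes did, and 2 had one with a mean below 0, where 9.09% did. The 8 were PCNA, GINS4, RRM2, RRM1, MCM7, RFC4, MCM3 and CCNE2, and the 2 were CCNE1 and CDT1. The intervals rest on the 2 clone averages and leave out the spread between dye swaps and that of the ctrl clone. POLE, for example, ran from -1.19 to 0.57 over the arrays, with an interval of -0.45 to 0.23. For 52 of the 53 genes the 95% interval of the mean lay within 1.5-fold either way, as it did for 92.1% of all genes, and the exception was CCND1 (-0.95 to 0.10).

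**Figure D1:**
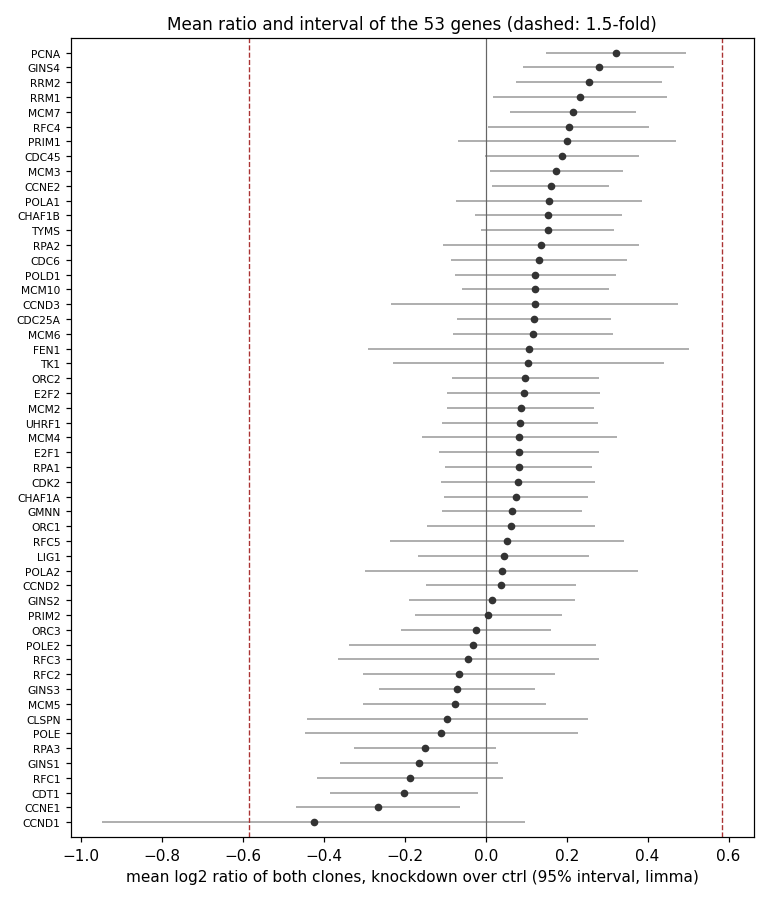
Mean log2 ratio of both clones (knockdown over ctrl, horizontal axis) for each of the 53 genes (vertical axis, sorted by mean). Points are means of 2 clones, bars are limma's 95% intervals over the 2 clone averages and dashed lines mark 1.5-fold. The means run from -0.43 (CCND1) to 0.32 (PCNA), and only the bar of CCND1 crosses a dashed line.

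The threshold counts depended on what was taken as a replicate. With the 4 arrays fitted singly and the clone as a random block, 4 genes were called higher (2.71% of all genes) and 1 lower (5.35%), namely PCNA (limma adjusted p = 0.029), GINS4 (0.0285), RRM2 (0.0481), MCM7 (0.0408) and CCNE1 (0.0384). No gene of the group was called when the fit held a term for the dye orientation (1.06% of all genes higher, 3.12% lower). With the ctrl clone given a spread like that of the knockdown clones, 0 probes of the whole array were called higher and 0 lower. A count of 0 in the group was thus given in advance and says nothing particular to these genes. By size, none of the 53 genes reached 1.5-fold in 1 direction on both arrays of sh-G1 (0.646% of all genes higher, 1.65% lower) or of sh-G2 (0.735% higher, 2.03% lower), and so none did on all 4 arrays (0.355% higher, 1.29% lower).

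Small positive ratios were more frequent in the group than over the array. Of the 53 genes, 41 were above 0 in sh-G1 (49.5% of all genes), 32 in sh-G2 (46.7%) and 39 in the mean of both (48.1%). The clones share the ctrl clone, so their ratios are not independent of each other. Side by side, 27 genes were above 0 in both clones (28.8% of all genes), 7 below 0 in both (32.6%) and 19 of opposite sign (38.6%). The group had a median of 0.09 in sh-G1, of 0.07 in sh-G2 and of 0.08 in the mean of both, where the median of all genes lay at 0.00 in the mean. On all 4 arrays, 10 genes were above 0 (7.08% of all genes): MCM3, MCM6, MCM7, ORC2, GINS4, PCNA, PRIM1, RRM2, E2F2 and GMNN. Below 0 on all 4 were RPA3, CCND1 and CCNE1 (10.3% of all genes). Genes were counted by sign with no tolerance, and CCND1 and MCM6 lay at 0.00 on the second sh-G1 array. These counts are descriptions of a list and carry no test.

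**Figure D2:**
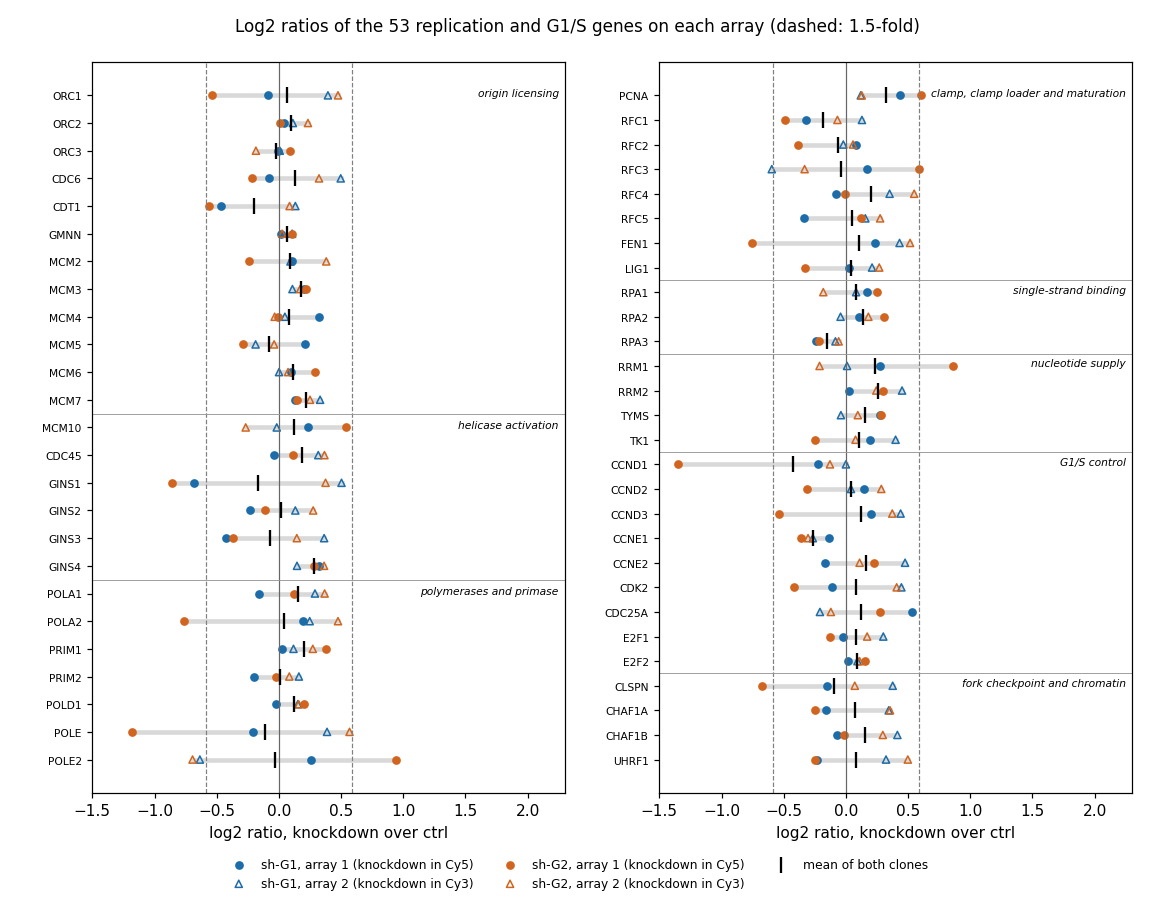
Log2 ratio (knockdown over ctrl, horizontal axis) of each of the 53 genes on each array, grouped by role. Filled circles are arrays with the knockdown in Cy5, open triangles arrays with it in Cy3, blue is sh-G1, orange is sh-G2, black ticks are means and dashed lines mark 1.5-fold. The first sh-G2 array (orange circles) holds 10 genes past 1.5-fold, against 1, 2 and 1 on the others.

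Among the 12 genes of origin licensing, 7 were above 0 in both clones (28.8% of all genes). CDT1 alone was below 0 in both (32.6%). MCM7, a subunit of the helicase ring, had ratios of 0.13 and 0.33 in sh-G1 and 0.15 and 0.25 in sh-G2, with a mean of 0.21 (SE 0.05, limma adjusted p = 0.272). MCM3, another subunit of the ring, gave 0.20 and 0.11 in sh-G1 and 0.22 and 0.17 in sh-G2, with a mean of 0.17. MCM6 gave 0.10 and 0.00 in sh-G1 and 0.29 and 0.07 in sh-G2, with a mean of 0.12. These 3 subunits were above 0 on every array, MCM6 barely so on the second array of sh-G1.

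The other subunits of the ring varied more between arrays. MCM2 gave 0.11 and 0.09 in sh-G1 and -0.24 and 0.38 in sh-G2, so that the arrays of sh-G2 lay on opposite sides of 0. MCM4 gave 0.32 and 0.05 in sh-G1 and 0.00 and -0.03 in sh-G2, and was the only gene of the group above 0 on both arrays of 1 clone and below 0 on both of the other, its sh-G2 ratios lying close to 0. MCM5 gave 0.21 and -0.19 in sh-G1 and -0.29 and -0.04 in sh-G2, with a mean of -0.08. The 6 subunits of 1 ring thus had means from -0.08 to 0.21, none of which passed the test.

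CDT1 and CDC6, the loaders of the ring, differed in sign between the first and second arrays. CDC6 had ratios of -0.08 and 0.50 in sh-G1 and -0.22 and 0.32 in sh-G2, with a mean of 0.13 (SE 0.07, limma adjusted p = 0.583). CDT1 had ratios of -0.47 and 0.13 in sh-G1 and -0.56 and 0.09 in sh-G2, with a mean of -0.20 (SE 0.06, limma adjusted p = 0.343). Both genes were below 0 on the arrays with the knockdown in Cy5 and above 0 on those with it in Cy3, in both clones. The second, dimmer CDT1 probe gave -0.07 and 0.00 in sh-G1 and -0.92 and 0.34 in sh-G2, with a mean of -0.16. Geminin, the inhibitor of CDT1, stayed close to 0, with 0.02 and 0.11 in sh-G1 and 0.11 and 0.03 in sh-G2. ORC2, a core subunit of the origin recognition complex, gave 0.04 and 0.11 in sh-G1 and 0.01 and 0.23 in sh-G2, while its partners ORC1 and ORC3 had means of 0.06 and -0.02.

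The 6 genes of helicase activation had a median of 0.07. GINS4, a subunit of GINS, had the second highest mean of the group, 0.28 (SE 0.06, 1.21-fold, limma adjusted p = 0.246), from 0.32 and 0.15 in sh-G1 and 0.28 and 0.36 in sh-G2. Its second, dimmer probe had a mean of 0.21. CDC45, which joins GINS and the ring in the active helicase, gave -0.04 and 0.32 in sh-G1 and 0.12 and 0.37 in sh-G2, with a mean of 0.19. All but 1 of the CDC45 ratios were above 0. GINS1, a further subunit of GINS, gave -0.68 and 0.50 in sh-G1 and -0.86 and 0.38 in sh-G2. Its mean of -0.17 (SE 0.07, limma adjusted p = 0.442) averaged ratios below 0 on both first arrays and above 0 on both second arrays. The other 2 subunits, GINS2 and GINS3, had means of 0.02 and -0.07, and MCM10, which helps to start the helicase, one of 0.12.

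PCNA, the sliding clamp that holds the polymerases on DNA, had the highest mean of all. Its ratios were 0.43 and 0.12 in sh-G1 and 0.60 and 0.13 in sh-G2, for a mean of 0.32 (SE 0.06, 95% interval 0.15 to 0.49, 1.25-fold, limma adjusted p = 0.189). The ratio was above 0 on every array and higher on both arrays with the knockdown in Cy5. Of the loaders of the clamp, RFC4 gave -0.08 and 0.35 in sh-G1 and 0.00 and 0.55 in sh-G2, with a mean of 0.20 (SE 0.07, limma adjusted p = 0.367). RFC1, the large subunit of the same loader, gave -0.32 and 0.13 in sh-G1 and -0.49 and -0.07 in sh-G2, with a mean of -0.19, while its other probe had a mean of 0.09. RFC3 was 0.17 and -0.60 in sh-G1 and 0.59 and -0.33 in sh-G2. RFC2 and RFC5 had means of -0.07 and 0.05, so the 5 subunits of RFC did not share a sign. FEN1, which trims the flaps of Okazaki fragments, gave 0.23 and 0.43 in sh-G1 and -0.76 and 0.52 in sh-G2, and its second probe repeated this pattern (0.14, 0.58, -0.87 and 0.54). LIG1, the ligase that seals these fragments, gave 0.02 and 0.21 in sh-G1 and -0.33 and 0.27 in sh-G2.

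Of the 7 polymerase and primase genes, 3 were above 0 in both clones (28.8% of all genes). None was below 0 in both (32.6%), and 4 were of opposite sign (38.6%). PRIM1, the catalytic subunit of primase, gave 0.03 and 0.12 in sh-G1 and 0.38 and 0.27 in sh-G2, with a mean of 0.20 (SE 0.09, limma adjusted p = 0.496). It was above 0 on all arrays and higher on both arrays of sh-G2. POLE, the catalytic subunit of polymerase epsilon, gave -0.21 and 0.39 in sh-G1 and -1.19 and 0.57 in sh-G2. POLE2, an accessory subunit of the same enzyme, gave 0.26 and -0.64 in sh-G1 and 0.94 and -0.69 in sh-G2. POLE was lower on both first arrays and POLE2 on both second arrays, and their means were -0.11 and -0.03. POLA1 and POLA2 of polymerase alpha had means of 0.16 and 0.04, POLD1, the catalytic subunit of polymerase delta, one of 0.12 and PRIM2, the large primase subunit, one of 0.01.

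The 3 subunits of RPA, which coats single-stranded DNA, did not share a sign. RPA3 was below 0 on every array, with -0.24 and -0.08 in sh-G1 and -0.22 and -0.06 in sh-G2 (mean -0.15, SE 0.06, limma adjusted p = 0.441). RPA1 and RPA2 had means of 0.08 and 0.14. The 4 genes of nucleotide supply had the highest median of any role, 0.19, with means from 0.11 to 0.25. RRM2, the small subunit of ribonucleotide reductase, gave 0.03 and 0.45 in sh-G1 and 0.30 and 0.24 in sh-G2, with a mean of 0.25 (SE 0.06, 1.19-fold, limma adjusted p = 0.264). It was above 0 on all arrays, while its second, dimmer probe had a mean of 0.12 and was at -0.30 on the first sh-G2 array. RRM1, the large subunit, gave 0.27 and 0.01 in sh-G1 and 0.86 and -0.21 in sh-G2, with a mean of 0.23. Thymidylate synthase (TYMS) gave 0.28 and -0.04 in sh-G1 and 0.28 and 0.10 in sh-G2, with a mean of 0.15. Thymidine kinase (TK1), the enzyme of the salvage route, gave 0.19 and 0.40 in sh-G1 and -0.25 and 0.08 in sh-G2, with a mean of 0.11.

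The lowest means of the group belonged to CCND1 and CCNE1, cyclins that drive G1. CCNE1, the cyclin E that activates CDK2 at the G1/S boundary, gave -0.14 and -0.27 in sh-G1 and -0.36 and -0.30 in sh-G2, with a mean of -0.27 (SE 0.07, 95% interval -0.47 to -0.06, limma adjusted p = 0.286). It was below 0 on all arrays, in either orientation. CCNE2, the second cyclin E, gave -0.17 and 0.48 in sh-G1 and 0.22 and 0.11 in sh-G2, with a mean of 0.16 (limma adjusted p = 0.345). The means of the 2 cyclin E genes thus lay on opposite sides of 0, a difference that was not tested.

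CCND1, a cyclin D that responds to growth signals, gave -0.23 and 0.00 in sh-G1 and -1.35 and -0.13 in sh-G2, with a mean of -0.43 (SE 0.18, limma adjusted p = 0.458). The low mean came largely from the first sh-G2 array, and the 2 other CCND1 probes had means of -0.11 and -0.08. CCND2 gave 0.14 and 0.04 in sh-G1 and -0.31 and 0.28 in sh-G2, with a mean of 0.04, and its other probes had means of 0.07 and -0.12. CCND3 gave 0.20 and 0.44 in sh-G1 and -0.54 and 0.37 in sh-G2, with a mean of 0.12. In each of the 3 cyclin D genes the lowest ratio of the brightest probe was that of the first sh-G2 array. The dimmest CCND1 probe gave 0.22 on that array and had its lowest ratio, -0.45, on the second sh-G1 array. CDK2, the kinase partner of cyclin E, had a mean of 0.08, E2F1 of 0.08, E2F2 of 0.09 and the phosphatase CDC25A, which activates CDK2, of 0.12.

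The 4 genes of the fork checkpoint and of chromatin assembly behind the fork, CLSPN, CHAF1A, CHAF1B and UHRF1, differed in sign between the orientations. By their brightest probes, all 4 were below 0 on both arrays with the knockdown in Cy5 and above 0 on both with it in Cy3. Their medians were -0.15 and 0.36 in sh-G1 and -0.25 and 0.33 in sh-G2, which left 0.08 in the mean. UHRF1, which keeps DNA methylation through replication, gave -0.24 and 0.32 in sh-G1 and -0.25 and 0.50 in sh-G2. Its second, dimmer probe gave 0.15 and 0.04 in sh-G1 and -0.13 and 0.04 in sh-G2 and did not follow this order. The means of CLSPN and of the subunits CHAF1A and CHAF1B of chromatin assembly factor 1 were -0.09, 0.07 and 0.15.

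**Figure D3:**
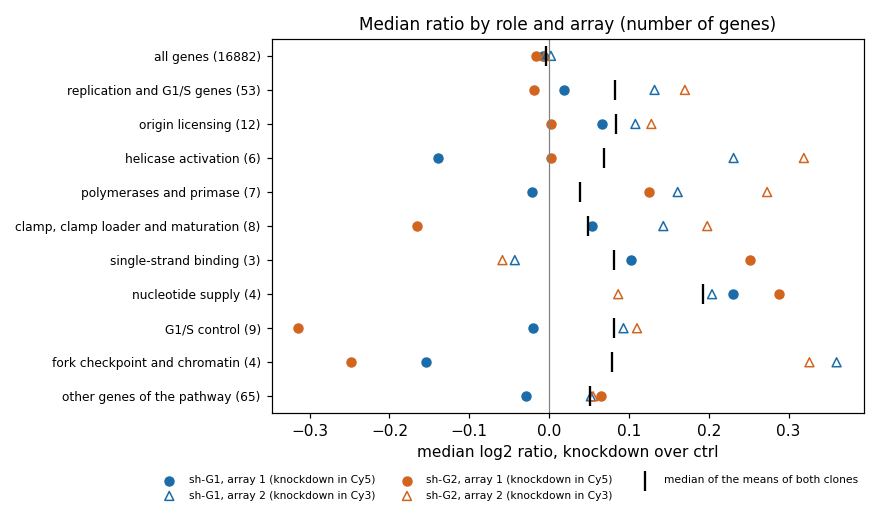
Median log2 ratio (knockdown over ctrl, horizontal axis) of all genes, of the 53 genes, of each role and of 65 other genes of the pathway, with the number of genes in brackets. Filled circles are arrays with the knockdown in Cy5, open triangles arrays with it in Cy3, blue is sh-G1, orange is sh-G2, and ticks are medians of the means. The medians of the means stay between 0.04 and 0.19 for every role, while the medians of single arrays run from -0.31 to 0.36.

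Over the group as a whole, the ratios split by the orientation of the dyes. The median of the 53 genes was -0.04 over the arrays with the knockdown in Cy5 and 0.20 over those with it in Cy3, where all genes had medians of -0.02 and 0.00. Of the 53 genes, 28 were above 0 on the first sh-G1 array (48.5% of all genes) and 24 on the first sh-G2 array (47.6%), where the knockdown carried Cy5. With the dyes exchanged, 42 were above 0 for sh-G1 (50.4%) and 40 for sh-G2 (49.1%). On both Cy5 arrays 18 genes were above 0 (33.7% of all genes), and on both Cy3 arrays 37 were (39.1%). Exactly this split, above 0 on both Cy3 arrays and below 0 on both Cy5 arrays, was found in 15 genes (18.8% of all genes), and the reverse in 4 (21.3%). Over the 53 genes, the dye swaps of a clone correlated with r = -0.386 in sh-G1 and -0.439 in sh-G2. Over all probes kept these values were 0.324 and 0.186. Arrays of the same orientation correlated across the clones with r = 0.508 (Cy5) and 0.782 (Cy3) in the group, against 0.613 and 0.732. In 33 of the 53 genes, each orientation lay further from the mean ratio than the mean ratio lay from 0. The orientations of those genes thus had opposite signs, as in 64.5% of all genes. The share of genes above 0 in both clones therefore holds for the mean of the dye swaps and not for the Cy5 arrays alone.

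Brightness was uneven as well: 46 of the 53 genes were among the brightest 25% of probes, as were 6372 of all 16882 genes (37.7%). The median mean ratio of those 46 was 0.08, where all genes of that brightness had a median of 0.00. Each clone mean holds 1 array of either orientation.

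**Figure D4:**
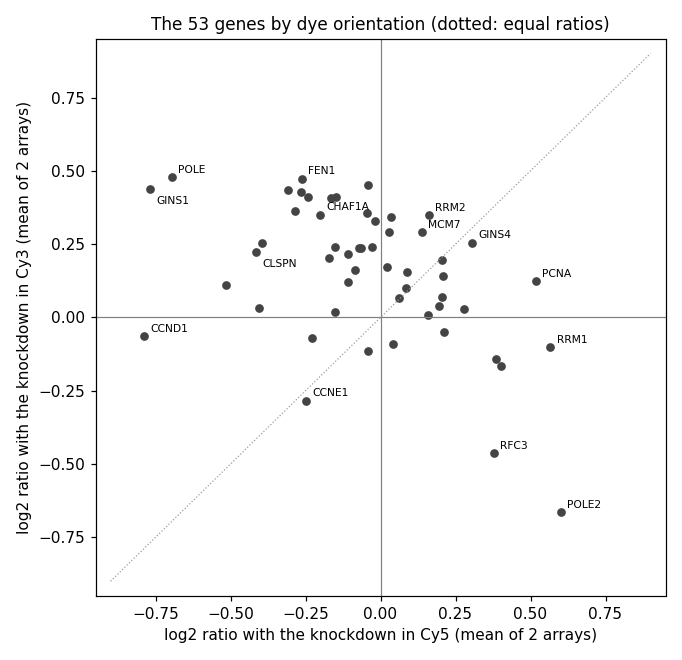
Log2 ratio (knockdown over ctrl) of the 53 genes with the knockdown in Cy5 (horizontal axis) and in Cy3 (vertical axis), each the mean of 2 arrays, 1 per clone. A gene with equal ratios in both orientations lies on the dotted line. GINS4, MCM7, RRM2, PCNA and CCNE1 keep their sign, while GINS1, POLE, FEN1, POLE2 and RFC3 do not.

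At least 1 array passed 1.5-fold for 10 genes (15.7% of all genes): GINS1, PCNA, RFC3, POLA2, POLE, POLE2, FEN1, RRM1, CCND1 and CLSPN. The first sh-G2 array held all 10, where 10.6% of all genes passed. The first sh-G1 array held 1 (4.74%), the second sh-G1 array 2 (5.08%) and the second sh-G2 array 1 (5.34%). No gene of the 10 reached 1.5-fold in the same direction on both arrays of a clone.

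The clones were compared with each other on the 4 arrays with a term for the dye orientation, in which the ctrl clone cancels. Each clone is 1 sample and its 2 arrays are dye swaps, so this fit covers the spread between arrays and not that between replicates of a clone. None of the 53 genes differed between sh-G1 and sh-G2 at an adjusted p under 0.05 (0.184% of all genes did), and 2 had an unadjusted p under 0.05 (6.66% of all genes). By their brightest probes, these were CLSPN and TK1. CLSPN, a mediator of the fork checkpoint, was higher in sh-G1 by 0.41 (limma adjusted p = 0.366), and TK1 by 0.38 (limma adjusted p = 0.439). The brightest CCND2 probe gave a difference of 0.11. The other CCND2 probes gave 0.39 and 0.64, with limma's unadjusted p under 0.05 for both (limma adjusted p = 0.509 and 0.597). For 37 of the 53 genes the interval of the clone difference, again over arrays only, lay within 1.5-fold either way, as for 80.6% of all genes.

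A gene was represented by its brightest probe. Of the 53 genes, 16 had several probes, and in 5 of these the means of the probes differed in sign: MCM10, RFC1, CCND2, E2F2 and CDC25A. The widest gap between probes of 1 gene was 0.349, in CCND1, and no probe out of 71 passed the test in either direction (0.138% of all probes higher, 0.7% lower).

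Of 67 other listed genes of replication and G1/S control, 65 had a named probe (TFDP2 and RAD1 did not). Of these 65, 1 was called lower (0.906% of all genes) and 0 higher (0.184%). This was CDK6, the kinase that pairs with cyclin D, with ratios of -2.03 and -1.53 in sh-G1 and -1.69 and -1.55 in sh-G2, for a mean of -1.70 (SE 0.06, 3.25-fold lower, limma adjusted p = 0.0193). All 4 arrays were far below 0 and past 1.5-fold. A second, dimmer CDK6 probe had a mean of -0.03 (limma adjusted p = 0.860), so the probes of this gene disagree. The size of the ratio depended on how background was handled, with means of -2.23 at a normexp offset of 0, -2.41 by the software's ratio and -2.51 in the series matrix, each called (limma adjusted p = 0.0275, 0.0102 and 0.000199). The study picked CDK6 out on these same arrays, and it is no independent evidence. With the ctrl clone given a spread of its own, the call was lost (limma adjusted p = 0.131). Under that setting 0 probes of the whole array were called higher and 0 lower, so the loss is not particular to CDK6. With the clone as a random block, 6 of the 65 were called lower (5.35% of all genes) and 1 higher (2.71%), namely CDK6, CDKN1C, CDKN2A, CDKN2D, POLD3, POLE4 and, above 0, FBXW7. With a term for the dye orientation 3 were called lower (3.12%), CDK6, CDKN2A and CDKN1C, and 0 higher.

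Around the G1/S switch, other values were smaller. The median of the 65 genes was 0.05, with 28 above 0 in both clones (28.8% of all genes) and 15 below 0 in both (32.6%). CDKN2A, which encodes the CDK4 and CDK6 inhibitor p16, gave -0.43 and -1.17 in sh-G1 and -0.88 and -1.34 in sh-G2, with a mean of -0.95 (limma adjusted p = 0.0835), and -1.01 by its second probe. CDKN1A, the p53 target p21, gave 0.64 and 0.65 in sh-G1 and 0.00 and 0.37 in sh-G2 (mean 0.42, limma adjusted p = 0.367). CDKN1C and CDKN2D, further inhibitors of cyclin-dependent kinases, had means of -0.44 and -0.37, RB1 of 0.30 and CDK4 of 0.18. The second RB1 probe had a mean of -0.05 and the second CDKN1A probe one of 0.42, while CDKN1C, CDKN2D and CDK4 had 1 probe each. None of these 6 passed the test of the mean of both clones. By size, CDKN1A was higher by over 1.5-fold on both sh-G1 arrays, 1 of the 65 (0.646% of all genes), where CDK6 was the 1 lower (1.65%). The second, dimmer CDKN1A probe gave 0.32 and 1.09 in sh-G1 and did not pass on the first of these arrays. CDKN2A and CDK6 were lower by over 1.5-fold on both sh-G2 arrays, 2 of the 65 (2.03%). All of these but CDK6 are named after their values were seen, as are FBXW7, POLD3 and POLE4.

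**Figure D5:**
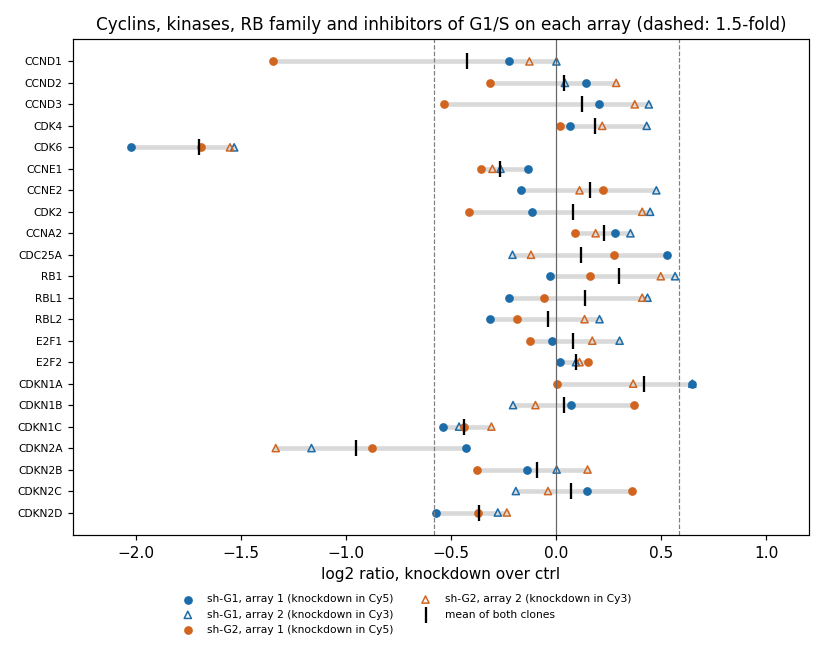
Log2 ratio (knockdown over ctrl, horizontal axis) of cyclins, cyclin-dependent kinases, RB family genes, E2F1, E2F2 and kinase inhibitors on each array. Filled circles are arrays with the knockdown in Cy5, open triangles arrays with it in Cy3, blue is sh-G1, orange is sh-G2, ticks are means and dashed lines mark 1.5-fold. By its brightest probe, CDK6 lies between -2.03 and -1.53 on all 4 arrays, apart from the other genes.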

How the data were processed

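Per the labels, total RNA of each knockdown clone and of ctrl was labelled with Cy3 and Cy5 and hybridised to Agilent Whole Human Genome arrays, with the dyes exchanged on a second array. The authors deposited Feature Extraction files (version 10.5.1.1 by the file headers, 8.5.1.1 by the labels) with median spot intensity and local background intensity per channel, and the software's log10 ratio. In the deposited series matrix, 3 columns equal that log10 ratio, while the column for sh-G1 with Cy3 holds a score, the error of the ratio as the authors deposited it, and was not used.

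From the deposited intensity values, log2 ratios were made with limma 3.58.1 in R 4.3.3: normexp with an offset of 50, loess within the array, control spots at weight 0 and outlier spots left out. A probe entered the tests if 1 channel or both stood well above background on each of the 4 arrays (39152 of 40905), and probes were named through RefSeq accessions (25398 of 41000 probes). The 2 dye swaps of a clone were averaged as 1 replicate, since whether they share an extract is not given in the sources used here. With n = 2 clones, the mean was tested against 0 (lmFit, eBayes with trend), with Benjamini-Hochberg adjustment over all kept probes and a threshold of 0.05. The ctrl clone is on every array, so its own spread is left out of this test. The clones were compared in a fit of the 4 arrays with each clone and the dye as terms. No test was made over the list.

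A gene stands by its brightest kept probe. Genes named are GALNT3, those called or past 1.5-fold on both arrays of a clone, the 10 highest and 5 lowest means, and MCM2 to MCM7, CDC6, PCNA, cyclins D and E and the nucleotide supply genes for their roles. Others were added after their values were seen. The genes and lists were chosen with earlier results of these data known. The fits were run on simulated arrays with known changes. Those arrays had small noise and the same dye effect in both clones, so the spread between the dye swaps seen here was not covered. The random block used statmod 1.5.0. Promoter letters and figures used Python 3.11.15, pandas 2.3.3, numpy 2.4.6 and matplotlib 3.10.9. The number of arrays limits the precision, and the p-values measure the spread between these samples only.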

Additional observations from a re-analysis of the deposited data

How the results depend on the processing

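The tests rest on 2 clones against 1 ctrl clone. Fits of 1 dye orientation hold 1 array per clone and are left out of the counts below. Under every other alternative run, the count of genes called by the test of the mean stayed at 0, except with the random block. That block called 4 genes and 4 probes higher and 1 gene and 1 probe lower (PCNA 0.32, limma adjusted p = 0.029; GINS4 0.28, 0.0285; RRM2 0.25, 0.0481; MCM7 0.21, 0.0408; CCNE1 -0.27, 0.0384). Arrays with the same number share the dye orientation, which cannot be told apart from array number, and their deviations from the clone means correlated with r = 0.691 over probes. With this pairing as a replicate block the counts were 0 higher and 0 lower. Without the block, 0 genes differed between the clones. With ctrl given the same spread, 0 probes of the whole array were called higher and 0 lower. CDK6 (-1.70) lost its call with the rest, at a limma adjusted p = 0.131.

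Genes past 1.5-fold on both arrays of a clone stayed at 0 except as follows. Leaving out 1 array, so that 1 array stands for its clone, gave 0 to 2 genes (0 to 2 probes) lower in sh-G1, 0 to 4 genes (0 to 4 probes) higher in sh-G2 and 0 to 6 genes (0 to 11 probes) lower in sh-G2. The highest counts were those without the first sh-G1 array (2.85% of all genes lower) and without the second sh-G2 array (3.90% higher, 6.70% lower). At 1.2-fold, 2 genes and 2 probes were higher and 1 gene and 1 probe lower in sh-G2 (2.52% and 4.34% of all genes). In the mean of the arrays, 1 gene and 1 probe (CCND1) was lower in sh-G2 (2.77%). With the series matrix ratios of 3 arrays, 1 gene and 2 probes were higher in sh-G1 (1.94%).

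The median of the group, 0.08 in the mean of both clones, was 0.05 (0.0474) with the series matrix, between 0.02 (0.0239) and 0.13 (0.131) with 1 array left out, and, in alternatives added after the data were seen, -0.04 (-0.0408) on the Cy5 arrays and 0.20 (0.195) on the Cy3 arrays. Of 389 values of 26 named genes under the alternatives other than these fits of 1 orientation, 20 changed sign. With the series matrix these were CDC45 (-0.075), MCM3 (-0.0402), CCNE2 (-0.144), CCND2 (-0.0757) and TK1 (-0.11). With 1 array left out, named genes crossed 0 within these ranges: GINS1 (-0.474 to 0.144), CCNE2 (-0.00178 to 0.321), MCM5 (-0.176 to 0.0225), CDC6 (-0.014 to 0.275), RRM1 (-0.0362 to 0.501), MCM2 (-0.0682 to 0.241), CCND2 (-0.111 to 0.188), CCND3 (-0.107 to 0.348) and GALNT3 (-0.0756 to 0.0592). GALNT3 also did so without background correction (0.0254), with the software ratio (0.115) and with median centring (0.16). The cause was not tested. With 3 arrays, the clone difference with a dye term leaves no residual degrees of freedom and was not fitted.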

Other observations

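Genes that act after S phase, in G2 and mitosis, were listed for comparison. Of 20 listed G2/M genes, 19 had a probe and 18 were kept. None was called by limma in either direction, and 3 had an unadjusted p under 0.05 with a mean above 0 (6.24% of all genes). Their median was 0.11 in the mean of both clones, with 12 of 18 above 0 in both clones (28.8% of all genes) and 1 below 0 in both (32.6%). BUB1, a kinase of the spindle checkpoint, had the highest mean, 0.35, from -0.09 and 0.61 in sh-G1 and 0.41 and 0.48 in sh-G2 (limma adjusted p = 0.236). BUB1B, of the same checkpoint, gave 0.15 and 0.29 in sh-G1 and 0.22 and 0.45 in sh-G2, and KIF20A, a kinesin of cytokinesis, 0.24 and 0.30 in sh-G1 and 0.22 and 0.34 in sh-G2. Both were above 0 on every array. MKI67, a common marker of cycling cells, gave -0.13 and 0.31 in sh-G1 and -0.20 and 0.49 in sh-G2, with a mean of 0.12. The median over the Cy5 arrays was -0.03 and over the Cy3 arrays 0.24, and 5 of the 18 were above 0 on both Cy3 arrays and below 0 on both Cy5 arrays (18.8% of all genes). The difference between this list and the replication genes was not tested. With the clone as a random block, BUB1, BUB1B and KIF20A were called higher, 3 of the 18 (2.71% of all genes).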
